A study of Mus musculus with 20 samples.

Results

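The comparison set conventional CD4+ T cells of the mesenteric lymph nodes (mLNs), sorted as CD4+YFP- (Foxp3-) cells, of mice whose regulatory T (Treg) cells lacked Tet2 and Tet3 against the same cells of WT mice. It rests on 6 of the 20 RNA-seq samples of the series, 3 WT and 3 DKO libraries, which were chosen by the tissue, genotype and sort that the labels give. The other samples are mLN Treg cells and both cell types from pooled spleen and peripheral lymph nodes (pLNs), which are used here only beside the CD4+Foxp3- values. All mice were C57BL/6 and 14 weeks old. WT mice carried *Foxp3* Cre, a YFP-Cre fusion knocked into the *Foxp3* gene, and DKO mice (Tet2/3 fl/fl Foxp3 Cre) carried *Foxp3* Cre and loxP-flanked alleles of both *Tet* genes, so the Cre allele was common to both groups. Because Cre follows *Foxp3*, the deletion is aimed at Treg cells. The gate takes YFP at the time of the sort, so cells that expressed *Foxp3* earlier, lost their own *Tet* genes and then lost *Foxp3* also fall into the CD4+YFP- gate. How many of the sorted cells carry deleted *Tet* alleles was not measured here, and changes within such cells and in cells with intact *Tet* genes cannot be told apart. The question was which gene programs of the non-Treg CD4 T cells differ in these mice.

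TET enzymes oxidize 5-methylcytosine in DNA, a step on the way to demethylation, and in Treg cells they help to keep the regulatory elements of *Foxp3* unmethylated. Treg cells restrain other T cells, and where their number or function fails, conventional CD4 T cells leave the naive state, divide and take on helper programs. Among these, T follicular helper (Tfh) cells enter B cell follicles and sustain germinal centers and antibody responses, while Th1, Th2 and Th17 cells act through their own cytokines.

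The libraries held between 10379495 and 15449158 counted reads in WT and between 11220301 and 14423370 in DKO, and 3 counts, the limit for a gene with no reads, were worth 0.203 to 0.299 CPM (counts scaled to a common library size after TMM normalization) by counting error alone. *Cd3e* was between 589 and 791 CPM and *Cd4* at 1387, 1381 and 1330.3 CPM in the WT libraries and 1422, 2320.0 and 1452 CPM in DKO, and *Cd8a* was at most 0.442 CPM. Of the 12 T cell identity genes, edgeR called 0, with 8 at an unadjusted p below 0.05 (2 higher and 6 lower in DKO) and a median log2 fold change of -0.12. In the DKO libraries 2 of the 12 lay wholly above and 4 wholly below WT, where 11.1% and 9.74% of all genes tested were separated in these directions. *Foxp3* was at 1.62, 1.35 and 1.4 CPM in the WT libraries and 2.75, 0.211 and 1.33 CPM in DKO, against a mean of 312 CPM in WT Treg cells. *Tet2* (9.96, 9.65 and 11.9 CPM in WT, 8.43, 8.44 and 12 CPM in DKO) and *Tet3* (101, 134 and 122 CPM in WT, 111, 69.7 and 136 CPM in DKO) had overlapping ranges, but whole-gene counts include exons outside the deleted part and check no genotype. The 3 WT libraries lay close together, at Euclidean distances of 14.7 to 16.6 over the 500 most variable genes, while the DKO libraries lay 41.3 to 66.6 apart and at mean distances from WT of 37.6 (replicate 1), 87.4 (replicate 2) and 61.8 (replicate 3). DKO replicate 2 thus stood apart from the other 5 libraries, and the main counts are given with and without it. Transcripts of plasma cells moved with it. *Jchain*, the joining chain of secreted antibodies, was at 8.09, 1.89 and 5.79 CPM in the WT libraries and 10.6, 474 and 46.8 CPM in DKO, and the 6 plasma cell genes together ranged from 61.9 to 71.7 CPM in WT, against 78.4, 708 and 128 CPM in DKO replicates 1, 2 and 3. By edgeR, 0 of the 6 were called and 4 had an unadjusted p below 0.05. The B cell gene *Ms4a1* was at most 0.352 CPM in every library, and the summed level of all 14 B cell genes ranged from 10.2 to 11.8 CPM in WT and from 12.9 to 29.8 CPM in DKO. Their median log2 fold change was 1.72, with 0 of the 14 called up, 1 called down and 8 at an unadjusted p below 0.05 (7 higher and 1 lower in DKO). The 18 myeloid genes together had 12.8 to 15.3 CPM in WT, against 13.8, 32.6 and 18.4 CPM in DKO. In bulk samples, more cells of a type and more RNA per cell cannot be told apart.

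Of 16784 genes tested, 575 (3.43%) were called. The test was edgeR's quasi-likelihood test, with a minimum fold change of 1.5 and a threshold of 0.05 on p adjusted after Benjamini and Hochberg. Nearly all of them rose: 524 (3.12% of the genes tested) were upregulated in DKO and 51 (0.304%) were downregulated. The 3 DKO libraries lay wholly above the 3 WT libraries in 501 of the 524 upregulated genes and wholly below them in all 51 downregulated genes. Over all genes tested, 11.1% and 9.74% were separated in these directions. The called genes were selected by a test on the same libraries, so their separation follows from the selection and is no separate support. The shift was graded across the DKO libraries. Replicate 2 was the highest DKO library in 414 of the 524 upregulated genes, replicate 3 in 99 and replicate 1 in 11, and replicate 1 was the lowest in 425. Leaving out DKO replicate 2, 417 genes were called, 371 up and 46 down, and 371 of the calls were shared with the full set in gene and direction.

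The number of calls depended on the libraries and the test used. The main fit estimated the spread between libraries from all 12 mLN libraries. The fits compared here also changed the genes tested, the libraries or the test, so they do not single out that estimate. With the 6 CD4+Foxp3- libraries alone, edgeR called 2 genes, *Igsf23* and *Plxdc2*, although 2340 genes had an unadjusted p below 0.05 (3138 in the fit of 12 libraries), while DESeq2's Wald test on the same 6 libraries called 539. Without WT replicate 1, 2 or 3, edgeR called 69, 57 and 110 genes, and without DKO replicate 1 it called 1453. Of the 61 called genes among those named by rule, 6, 7 and 11 stayed called without WT replicate 1, 2 and 3, with adjusted p of at most 0.174. All 61 kept their direction in each of 13 alternative fits. These fits reuse the libraries that selected the genes, so the kept direction is no separate support. The values of single libraries are therefore given beside many of the tests.

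**Figure D1:**
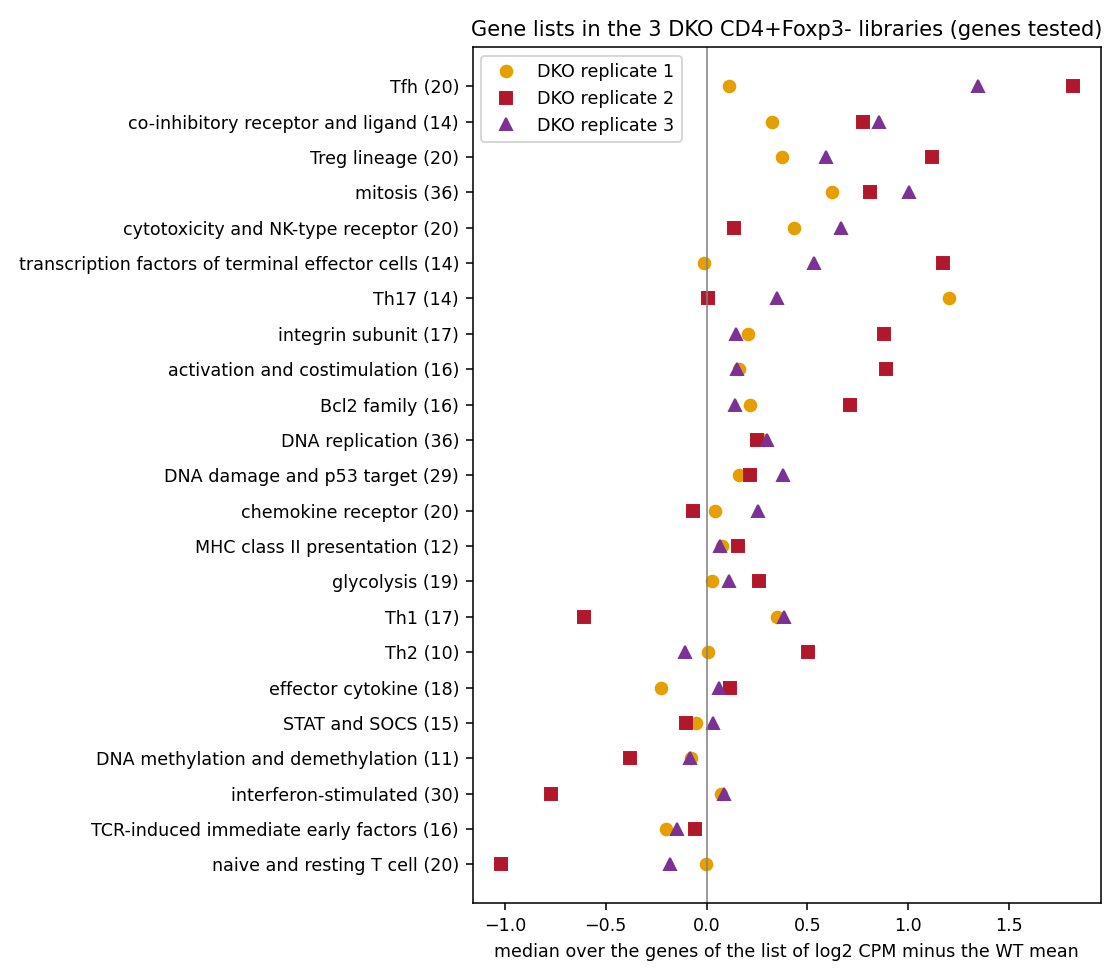
Median over the genes of each of 23 lists of the log2 CPM of a DKO CD4+Foxp3- library minus the WT mean (x axis, log2 units), with the number of genes tested after each list's name and 1 symbol per DKO library. The Tfh list has medians of 0.11, 1.81 and 1.35 in replicates 1, 2 and 3, the mitosis list 0.62, 0.81 and 1.0, and the naive list is lowest in replicate 2 (-1.02).

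Of the 20 Tfh genes tested, 7 were upregulated and 0 downregulated, and their median log2 fold change was 1.23, beside 0.00 over all genes. *Icos*, a costimulatory receptor needed for Tfh cells (chr1:61034771-61057164 in NCBIM37, the assembly of mm9), was at 101, 117 and 120.4 CPM in the WT libraries and 173, 853 and 364 CPM in DKO (log2 fold change 2.04 ± 0.39 SE, adjusted p = 0.0153). All 3 DKO libraries were above all WT libraries, with replicate 2 highest. *Pdcd1*, which encodes the inhibitory receptor PD-1 (chr1:95934884-95949130), was at 43.1, 50.9 and 37.5 CPM in the WT libraries and 67.2, 205 and 131 CPM in DKO (log2 fold change 1.62 ± 0.29 SE, adjusted p = 0.0112). *Cd200*, a surface ligand of Tfh cells, was at 36.6, 41.4 and 33.3 CPM in the WT libraries and 59.4, 332 and 126 CPM in DKO (log2 fold change 2.22 ± 0.43 SE, adjusted p = 0.0167). Both showed the same order of DKO libraries and no overlap with WT. Without DKO replicate 2, the log2 fold changes of *Icos* and *Cd200* were 1.26 and 1.32. *Il21*, the cytokine through which Tfh cells act on B cells (chr3:37121681-37131540), was at 12.3, 18.9 and 11.4 CPM in the WT libraries and 18.8, 139 and 101 CPM in DKO (log2 fold change 2.60 ± 0.59 SE, adjusted p = 0.0308), and here DKO replicate 1 lay within the WT range. Its call was lost without DKO replicate 2 (adjusted p = 0.0540) and without replicate 3 (adjusted p = 0.0564). *Tnfsf8* (CD30 ligand) was at 76.6, 82.8 and 69 CPM in the WT libraries and 119, 365 and 251 CPM in DKO (log2 fold change 1.69 ± 0.35 SE, adjusted p = 0.0216).

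The transcription factor *Maf*, which acts on *Il21*, and *Sh2d1a*, the adaptor SAP that T cells need to help B cells, were upregulated with log2 fold changes of 1.55 ± 0.39 and 0.64 ± 0.15 (SE, adjusted p = 0.0451 and 0.0302), and neither was called without DKO replicate 2 (adjusted p = 0.117 and 0.0553), nor *Maf* without replicate 3 (adjusted p = 0.0673). Other genes used to define Tfh cells did not pass the test. *Bcl6*, the repressor that directs Tfh differentiation, was at 36.1, 37.3 and 35.2 CPM in the WT libraries and 37.3, 67.8 and 79.2 CPM in DKO (adjusted p = 0.0742). *Cxcr5*, the receptor that draws cells to the follicle, was at 57.1, 71.2 and 52.2 CPM in the WT libraries and 60.1, 193 and 108 CPM in DKO (adjusted p = 0.0946). In both, replicates 2 and 3 were above every WT library, whereas replicate 1 was level with WT. The germinal center genes *Angptl2* (23.8, 38.5 and 21.4 CPM in WT, 30.4, 115 and 323 CPM in DKO) and *Sostdc1* (6.81, 9.79 and 6.78 CPM in WT, 5.5, 4.71 and 49 CPM in DKO) were highest in DKO replicate 3, not replicate 2, and did not pass the test (adjusted p = 0.0692 and 0.485). With DKO replicate 2 left out, *Pdcd1*, *Icos*, *Cd200* and *Tnfsf8* were called and the median was 0.83. DESeq2's Wald test on 4 groups called 13 of the 20, and edgeR 17 without DKO replicate 1. Without any single WT library 0 were called. The plasma cell genes were highest in the same DKO replicates, 2 and then 3, and their part in these differences was not tested.

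Of 16 genes of activation and costimulation, 3 were upregulated and 0 downregulated (median 0.38), and these 3 were called without DKO replicate 2 as well. Beside *Icos* they were *Tnfrsf4* (OX40), at 25.8, 27.5 and 26.4 CPM in the WT libraries and 48, 170.2 and 98 CPM in DKO (log2 fold change 1.99 ± 0.33 SE, adjusted p = 0.00877), and *Cd38*, an ectoenzyme of activated lymphocytes, at 9.36, 9.05 and 10.5 CPM in the WT libraries and 19.5, 91.5 and 36.3 CPM in DKO (log2 fold change 2.36 ± 0.41 SE, adjusted p = 0.0104). The DKO libraries kept one order in all 3 genes, with replicate 1 lowest and replicate 2 highest, and without replicate 2 the log2 fold change of *Cd38* was 1.55. *Cd44*, the marker by which memory and effector T cells are commonly gated, was highest in replicate 2 (117, 143 and 124 CPM in WT, 156, 318 and 126 CPM in DKO, adjusted p = 0.194). The early activation marker *Cd69* pointed the other way, with 76.9, 85.5 and 79.2 CPM in the WT libraries and 58.6, 52.6 and 71.7 CPM in DKO (adjusted p = 0.171), and *Il2ra*, the high-affinity IL-2 receptor chain, overlapped between the groups. Without WT replicate 1 or 2, 0 of the 16 were called.

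Of 16 factors that are induced early after T cell receptor engagement, *Irf4* was the only upregulated one, at 51.5, 56.5 and 56.3 CPM in the WT libraries and 66.7, 139.9 and 110.3 CPM in DKO (log2 fold change 0.95 ± 0.23 SE, adjusted p = 0.0403), and its call was lost without DKO replicate 2 or 3 (adjusted p = 0.0967 and 0.0770). Without that library *Nfkbid*, which was not called with it, was downregulated (adjusted p = 0.0269). The median of the list was -0.22. *Nr4a1*, which reports recent receptor signaling, was at 92.9, 86 and 80.9 CPM in the WT libraries and 61.1, 58.8 and 71.8 CPM in DKO (adjusted p = 0.0886), so that all 3 DKO libraries were below all WT libraries without passing the test. *Fos* was at 1229.7, 1089 and 460.1 CPM within WT alone.

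Of 14 co-inhibitory receptors and ligands, 5 were upregulated and 0 downregulated (median 1.13). *Lag3*, which binds MHC class II (chr6:124854379-124861723), was at 50.6, 73.3 and 49.3 CPM in the WT libraries and 97.9, 642 and 300.3 CPM in DKO (log2 fold change 2.58 ± 0.53 SE, adjusted p = 0.0194). *Tigit*, which competes with the costimulator CD226, was at 17.6, 19 and 12.9 CPM in the WT libraries and 27.9, 187 and 83.3 CPM in DKO (log2 fold change 2.59 ± 0.49 SE, adjusted p = 0.0152). *Ctla4*, which takes CD80 and CD86 from CD28, was at 23.2, 29 and 27 CPM in the WT libraries and 44, 148 and 101 CPM in DKO (log2 fold change 1.89 ± 0.33 SE, adjusted p = 0.00979). In all 3, every DKO library lay above every WT library, and replicate 2 was the highest. Without it, the log2 fold changes of *Lag3* and *Tigit* were 1.79 and 1.75. The other upregulated members were *Pdcd1*, and *Pdcd1lg2*, a ligand of PD-1, whose call was lost without DKO replicate 2 or 3 (adjusted p = 0.0827 and 0.126). *Cd274* (PD-L1) and *Havcr2* (TIM-3), the latter at most 1.86 CPM, did not pass the test. *Cd5*, a negative regulator of receptor signaling, was at 575, 559.9 and 571 CPM in the WT libraries and 519.5, 357 and 368 CPM in DKO (adjusted p = 0.048), a difference under the fold minimum. With DKO replicate 2 left out, 4 of the 14 were called, and without any single WT library 0.

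**Figure D2:**
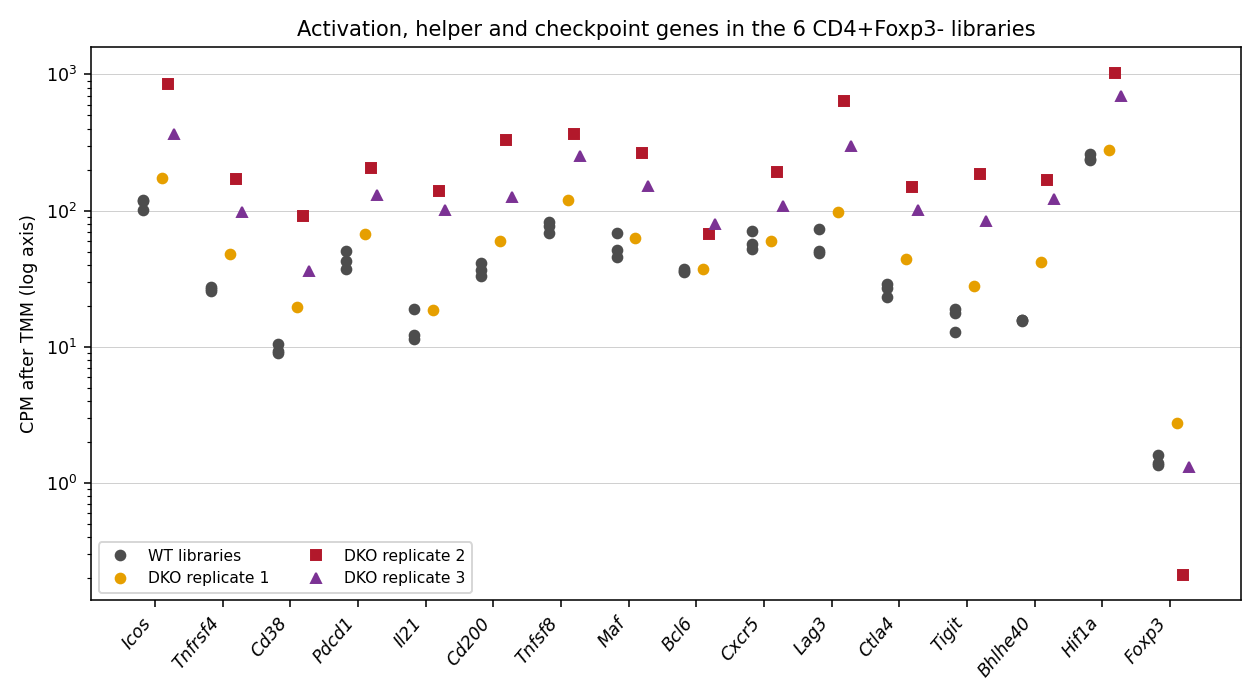
CPM after TMM normalization (y axis, log scale) of 16 genes in the 3 WT and the 3 DKO CD4+Foxp3- libraries, 1 symbol per library. DKO replicate 2 is the highest library for *Icos* (853 CPM) and *Lag3* (642 CPM), while *Foxp3* stays at or below 2.75 CPM.

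Several of these genes also belong to the Treg signature, of which 7 of 20 genes were upregulated and 0 downregulated (median 0.92). Beside *Ctla4* and *Tigit* they were *Ikzf2* (Helios), *Nrp1*, *Nt5e* (CD73), *Capg* and *Itgb8*. *Ikzf2* was at 27.4, 29 and 22.5 CPM in the WT libraries and 36.6, 64.9 and 48.8 CPM in DKO (log2 fold change 0.93 ± 0.18 SE, adjusted p = 0.016). *Itgb8*, an integrin chain that activates latent TGF-β, was at 1.02, 1.42 and 1.1 CPM in the WT libraries and 3.02, 6.97 and 5.83 CPM in DKO (log2 fold change 2.14 ± 0.36 SE, adjusted p = 0.00893). *Nt5e*, which makes adenosine, was at 76.5, 106 and 88 CPM in the WT libraries and 115, 349.8 and 232 CPM in DKO (log2 fold change 1.36 ± 0.32 SE, adjusted p = 0.0345), and its call was lost without DKO replicate 2 or 3 (adjusted p = 0.0702 and 0.0579). *Nrp1* fell below the fold minimum without replicate 2 (log2 fold change 0.57, adjusted p = 0.0104). *Foxp3* itself did not follow them. It was highest in DKO replicate 1 and lowest in replicate 2, at 0.211 CPM, the level that 3 counts have in that library. *Gpr83*, *Ikzf4* and *Itgae*, which are also high in Treg cells, pointed downward, with log2 fold changes of -0.72, -0.71 and -1.12 (adjusted p = 0.128, 0.102 and 0.29). With DKO replicate 2 left out, 5 of the 20 were called, and without WT replicate 1 or 2, 0.

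Of 14 Th17 genes, edgeR called 0 in either direction, with 6 at an unadjusted p below 0.05 (5 higher and 1 lower in DKO), and DESeq2's Wald test on 4 groups called 2. *Il17a* was at 1.96, 0.945 and 2.59 CPM in the WT libraries and 0.887, 0.493 and 0.354 CPM in DKO (adjusted p = 0.221). *Il17f* and *Il23r* reached 6.56 and 6.65 CPM in DKO replicate 1 and at most 1.77 CPM in every other library. The median of the list was 1.20 log2 units above WT in replicate 1, 0.01 in replicate 2 and 0.35 in replicate 3. Of 17 Th1 genes, 1 was upregulated, *Twist1*, a factor of repeatedly stimulated Th1 cells, which had 0 reads in WT. It was at 1.06, 15.4 and 1.77 CPM in DKO, and with 3 counts in each WT library as the floor it was at least 20.3-fold higher. Without DKO replicate 2 that bound was 4.73-fold, *Twist1* was still called, and *Il18rap*, *Ccl3* and *Ccl4* were called as well. *Tbx21* (6.64, 9.38 and 8.58 CPM in WT, 10.5, 4.15 and 8.84 CPM in DKO) and *Ifng* (2.3, 2.97 and 2.79 CPM in WT, 0.71, 0.633 and 3.71 CPM in DKO) did not pass the test, and their ranges overlapped. Of 10 Th2 genes, 2 were upregulated, *Ccr4* (24.9, 39.2 and 33.2 CPM in WT, 40.6, 153 and 66.5 CPM in DKO) and *Areg*, which was below 2 CPM throughout. With DKO replicate 2 left out, *Ccr4* went from a log2 fold change of 1.42 to 0.73 and *Areg* was not called (adjusted p = 0.0923, and 0.0687 without replicate 3), while *Gata3* and *Il4* overlapped between the groups.

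Among 18 cytokines, *Il21* and *Tgfb3* were upregulated and 0 were downregulated. *Tgfb3*, a TGF-β isoform, was at 1.53, 2.43 and 2.69 CPM in the WT libraries and 6.56, 21.9 and 9.72 CPM in DKO (log2 fold change 2.52 ± 0.45 SE, adjusted p = 0.0118), and it was called without DKO replicate 2 too, with a log2 fold change of 1.88. *Ifng*, *Il2*, *Il4*, *Il5*, *Il10*, *Il13* and *Il22* were each below 5 CPM in all 6 libraries. *Tnfsf11* (RANKL) reached 148 CPM in DKO replicate 2 and lay between 20.9 and 37.3 CPM in the other 5 libraries (adjusted p = 0.13).

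Taken as a list, genes of naive cells were lowest in DKO replicate 2. Of 20 genes of naive and resting T cells, 0 were called by edgeR or by DESeq2's Wald test on 4 groups, 1 had an unadjusted p below 0.05, and the median log2 fold change was -0.31 with DKO replicate 2 and -0.05 without it. *Ccr7*, which guides naive T cells into lymph nodes, was at 656, 566 and 684 CPM in the WT libraries and 643, 322 and 479.6 CPM in DKO. *Lef1*, a factor of naive T cells, was at 836, 727 and 797 CPM in the WT libraries and 712, 236 and 679 CPM in DKO. Replicate 2 was the lowest library in both, replicate 1 was close to WT, and the adjusted p were 0.409 and 0.341. *Tcf7* (TCF-1) and *Klf2* differed little between libraries, at 2239.9, 2133 and 1974 CPM and 379.7, 384 and 414 CPM in DKO against 2289, 2329 and 2259 CPM and 371, 409 and 398 CPM in WT. Summed over the list, DKO replicate 2 had 6597 CPM, where the other 5 libraries had between 10611 and 12556 CPM.

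Of 14 transcription factors of terminally differentiated effector cells, 4 were upregulated and 0 downregulated (median 0.73), and 4 were called without DKO replicate 2. *Bhlhe40*, a factor that sustains cytokine output (chr6:108610623-108616919), was at 15.4, 15.9 and 15.7 CPM in the WT libraries and 42, 167 and 122 CPM in DKO (log2 fold change 2.82 ± 0.41 SE, adjusted p = 0.0049). It was called in 12 of 13 alternative fits, and it was the gene of the list that stayed called without WT replicate 1 or 2. *Hif1a*, the hypoxia and glycolysis factor, was at 241, 262 and 235 CPM in the WT libraries and 279, 1032 and 693 CPM in DKO (log2 fold change 1.44 ± 0.31 SE, adjusted p = 0.0234). *Nfil3* was at 4.09, 5.4 and 4.79 CPM in the WT libraries and 6.56, 39.7 and 18.8 CPM in DKO (log2 fold change 2.19 ± 0.46 SE, adjusted p = 0.0215), and without DKO replicate 2 its log2 fold change was 1.41. *Zbtb32*, a repressor induced by activation, had 3 DKO libraries alike, at 3.46, 3.45 and 4.15 CPM against 0.255, 0.743 and 1.3 CPM in WT (log2 fold change 2.28 ± 0.42 SE, adjusted p = 0.0124). *Prdm1* (Blimp-1) overlapped between the groups, and *Vdr*, the vitamin D receptor, ranged from 3.02 CPM in DKO replicate 1 to 104 CPM in replicate 2 (adjusted p = 0.0535).

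Of 36 genes of mitosis, 14 were upregulated and 0 downregulated, and the median log2 fold change was 0.82. The DKO libraries lay wholly above the WT libraries in 32 of the 36, where 11.1% of all genes tested were so separated. *Mki67*, which marks cycling cells (chr7:142881471-142908062), was at 7.49, 9.79 and 8.58 CPM in the WT libraries and 17.8, 17.2 and 29.6 CPM in DKO (log2 fold change 1.31 ± 0.25 SE, adjusted p = 0.0152). *Ccnb1*, the cyclin that drives entry into mitosis (chr13:101548605-101556525), was at 4.68, 5.06 and 4.89 CPM in the WT libraries and 11, 11.5 and 14.4 CPM in DKO (log2 fold change 1.33 ± 0.24 SE, adjusted p = 0.0121). *Tpx2*, a spindle assembly factor, was at 6.89, 6.95 and 7.58 CPM in the WT libraries and 14.7, 14.6 and 17.9 CPM in DKO (log2 fold change 1.14 ± 0.22 SE, adjusted p = 0.0159). In these genes DKO replicate 1 was as far from WT as replicate 2, and replicate 3 was the highest. Summed over the 36 genes, WT libraries had 233 to 270.2 CPM and DKO libraries 391, 437 and 504 CPM. Leaving out DKO replicate 2, 10 of the 36 were called, 8 of them in common, and the median was 0.81. Without WT replicate 1, 2 or 3, 0, 0 and 2 were called, without DKO replicate 3 there were 5 and without DKO replicate 1 there were 22.

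In 22 of 36 genes of DNA replication the DKO libraries lay wholly above WT, where 11.1% of all genes tested did. Of the 36, 4 were upregulated and 0 downregulated (median 0.29). They were *Mcm6*, a subunit of the replicative helicase, at 144, 150.1 and 134 CPM in the WT libraries and 170.2, 320.0 and 255 CPM in DKO (log2 fold change 0.80 ± 0.17 SE, adjusted p = 0.0216), *Rrm2*, which makes deoxynucleotides, at 17.7, 20 and 19.7 CPM in the WT libraries and 31, 27.6 and 37.7 CPM in DKO (log2 fold change 0.74 ± 0.15 SE, adjusted p = 0.0181), *Tyms* and *Tk1*. *Mcm6* was the exception among the 6 *Mcm2* to *Mcm7* helicase genes, since the other 5 had log2 fold changes between 0.07 and 0.17 and did not pass the test. *Pcna*, the sliding clamp, was at 224, 216 and 204 CPM in the WT libraries and 215, 211 and 211 CPM in DKO. With DKO replicate 2 left out, *Rrm2*, *Tk1* and *Ccne2* were called. Without replicate 3 *Tyms* and *Tk1* were not (adjusted p = 0.0621 and 0.114), and without any single WT library 0 were.

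**Figure D3:**
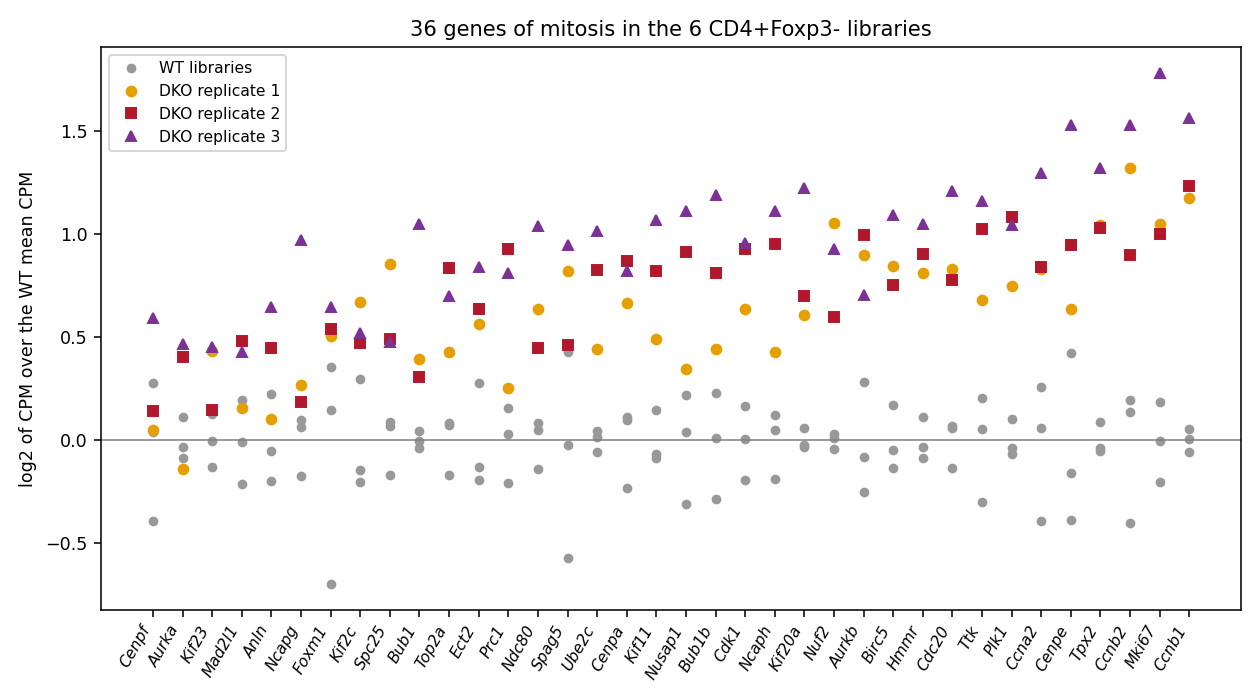
Log2 of the CPM of each library over the WT mean CPM (y axis) for the 36 genes of the mitosis list (x axis, in the order of their fitted fold change), with 1 symbol per library. In 32 of the 36 genes all 3 DKO symbols lie above all WT symbols, where 11.1% of all genes tested were so separated.

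Promoters of genes expressed in G2 and mitosis often carry the cell cycle genes homology region, a short element bound by the DREAM and MuvB complexes, while promoters of replication genes often carry E2F sites. Promoters of 31 genes of the mitosis list (33 promoters, from 250 bases before to 50 after the start, RefSeq, build GRCm38.p6) were matched by symbol. The letters TTTGAA, read on either strand, were in 25 of the 33 (75.8%), where 17.9% of all 32851 promoters hold them, and in 4 of 33 promoters (12.1%) of 29 replication genes. The E2F-type letters TTCCCGC, also on either strand, were in 1 of the 33 mitosis promoters (3.03%) and in 12 of the 33 replication promoters (36.4%), where 4.60% of all promoters hold them. These are matches of letters, described without a test, and neither is shown to be a site that was used in these cells. Windows of 30 bases from 4 upregulated genes are printed 5′ to 3′ on the strand of the gene, with the element in capitals, to show it in genes of the list that were called.
Mki67: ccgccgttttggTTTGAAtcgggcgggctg
Cdk1: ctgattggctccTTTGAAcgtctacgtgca
Cdc20: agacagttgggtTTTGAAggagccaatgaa
Ccnb2: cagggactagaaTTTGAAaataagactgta
In GRCm38.p6, all on the minus strand, they lie at chr7:135716460-135716489, chr10:69352966-69352995, chr4:118437344-118437373 and chr9:70421704-70421733. *Cdk1*, the kinase that cyclin B activates, was at 4.6, 5.27 and 5.88 CPM in the WT libraries and 8.16, 9.99 and 10.2 CPM in DKO (log2 fold change 0.85 ± 0.21 SE, adjusted p = 0.0387), *Cdc20*, which activates the anaphase-promoting complex, at 7.32, 6.41 and 7.38 CPM and 12.5, 12 and 16.3 CPM (log2 fold change 0.95 ± 0.24 SE, adjusted p = 0.0433), and *Ccnb2* at 4.09, 5.94 and 6.18 CPM and 13.5, 10.1 and 15.6 CPM (log2 fold change 1.26 ± 0.26 SE, adjusted p = 0.0204). The call of *Cdk1* was lost without DKO replicate 2 or 3 (adjusted p = 0.0759 and 0.0817), and those of *Cdc20* and *Ccnb2* without replicate 3 (adjusted p = 0.105 and 0.0505).

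Of 29 genes of the DNA damage response and p53 targets, 3 were upregulated and 0 downregulated (median 0.26). *Cdkn1a* (p21), a p53 target that halts the cell cycle, was low, at 0.426, 0.338 and 0.698 CPM in the WT libraries and 1.24, 1.55 and 1.86 CPM in DKO (log2 fold change 1.69 ± 0.36 SE, adjusted p = 0.0231), and was not called without DKO replicate 3 (adjusted p = 0.0533). *Cdkn2c*, a CDK inhibitor, was at 6.04, 8.84 and 8.78 CPM in the WT libraries and 10.4, 35.7 and 19.3 CPM in DKO (log2 fold change 1.47 ± 0.34 SE, adjusted p = 0.0322), and its call was lost without DKO replicate 2 (adjusted p = 0.0570). *Mdm2*, *Ccng1* and *Aen*, which p53 also activates, had log2 fold changes of 0.09, 0.20 and -0.02 and did not pass the test. Without DKO replicate 2, 3 of the 29 were called. In the Bcl2 family, 4 of 16 genes were upregulated, and 3 without DKO replicate 2. *Pmaip1* (Noxa), a death-promoting member, was at 2.38, 3.31 and 2.19 CPM in the WT libraries and 5.68, 23.6 and 10.5 CPM in DKO (log2 fold change 2.32 ± 0.42 SE, adjusted p = 0.0122), with a log2 fold change of 1.60 without that library. The pro-survival genes *Bcl2a1a*, *Bcl2a1b* and *Bcl2a1d* rose with log2 fold changes of 1.01, 0.97 and 1.08 (adjusted p = 0.024, 0.0206 and 0.0107), and *Bcl2a1a* was not called without DKO replicate 2 (adjusted p = 0.0578). These 3 are near-identical copies among which reads can be misplaced, so their single values are uncertain. *Bcl2* itself was at 146, 185 and 158 CPM in the WT libraries and 160.1, 151 and 162 CPM in DKO. Without WT replicate 1 or 2, 0 genes of either list were called.

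Of 19 glycolysis genes, 3 were upregulated, *Tpi1* (77.1, 73 and 71 CPM in WT, 89.1, 247 and 183 CPM in DKO, log2 fold change 1.23 ± 0.28 SE, adjusted p = 0.0279), *Pgam1* (101, 108 and 102 CPM and 119, 201 and 175 CPM, log2 fold change 0.67 ± 0.16 SE, adjusted p = 0.0361) and *Hk2* (2.55, 3.31 and 1.3 CPM and 4.79, 7.81 and 5.66 CPM, log2 fold change 1.32 ± 0.30 SE, adjusted p = 0.0279), and 0 without DKO replicate 2. Without replicate 3, *Tpi1* and *Pgam1* were not called (adjusted p = 0.0550 and 0.0775). The median of the list was 0.15. *Ldha* and the glucose transporter gene *Slc2a1* did not pass the test (log2 fold changes 0.16 and -0.08).

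Receptors that place T cells in tissues changed in both directions. *Ccr4*, a receptor for skin and inflamed tissue, was upregulated (log2 fold change 1.42 ± 0.35 SE, adjusted p = 0.0398), and *Ccr9*, which draws lymphocytes to the small intestine, was downregulated, from 22.7, 30.7 and 24.3 CPM in WT to 16.1, 4.08 and 7.95 CPM in DKO (log2 fold change -1.49 ± 0.38 SE, adjusted p = 0.0486). The call of *Ccr9* was lost without DKO replicate 2 (log2 fold change -1.10, adjusted p = 0.0720) or 3 (adjusted p = 0.107) and held in 3 of 13 alternative fits, and without replicate 1 its log2 fold change was -2.13. Of 20 chemokine and related receptors, *Ccrl2* rose and *Xcr1* fell as well, both below 7 CPM, and the median was 0.24. Among 17 integrin subunits, 4 were upregulated and 0 downregulated (median 0.48). *Itga4*, part of α4β7 and α4β1, was at 495, 566 and 481 CPM in the WT libraries and 719, 1037 and 671 CPM in DKO (log2 fold change 0.65 ± 0.16 SE, adjusted p = 0.0361), while its partner *Itgb7* overlapped between the groups. *Itgb5* was at 0.255, 0.338 and 0.399 CPM in the WT libraries and 1.33, 57.7 and 0.795 CPM in DKO, so that replicate 2 set its log2 fold change of 5.90, which was 1.67 without that library (adjusted p = 0.0814). With DKO replicate 2 left out, *Itgb8* and *Ccr4* were called, and without WT replicate 1 or 2, 0.

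Of 20 genes of cytotoxicity and NK-type receptors, 3 were upregulated and 0 downregulated (median 0.81). Without DKO replicate 2, *Klrb1c*, *Nkg7* and *Klrd1* were called, and without WT replicate 1, 0. *Klrb1c* (NK1.1) was at 6.21, 12.6 and 7.48 CPM in the WT libraries and 29.9, 135 and 61.8 CPM in DKO (log2 fold change 3.09 ± 0.48 SE, adjusted p = 0.0071), and without DKO replicate 2 its log2 fold change was 2.36. *Nkg7*, a granule protein, was at 12.4, 13.3 and 10.6 CPM in the WT libraries and 48.5, 13.3 and 48.4 CPM in DKO (log2 fold change 1.59 ± 0.37 SE, adjusted p = 0.0346). Replicates 1 and 3 were alike and replicate 2 was level with the highest WT library. *Srgn*, the granule proteoglycan serglycin, rose by 0.82 ± 0.18 (log2, SE, adjusted p = 0.0266). Without DKO replicate 3, neither *Nkg7* nor *Srgn* was called (adjusted p = 0.0846 and 0.0552). *Prf1* and *Gzmb*, the killing proteins perforin and granzyme B, did not pass the test (61.9, 55.4 and 57.6 CPM in the WT libraries and 62.6, 13.2 and 45.3 CPM in DKO for *Prf1*), and the NK cell gene *Ncr1* was at most 0.976 CPM in every library. The 5 NK cell genes measured, *Klrb1c* among them, together had 32 to 41.8 CPM in WT, against 55.1, 141 and 82.7 CPM in DKO. Without *Klrb1c* the sum pointed the other way, since the other 4 together had 35.6, 27.7 and 24.5 CPM in WT, against 25.2, 6.05 and 20.9 CPM in DKO. The part of NK cells in these differences was not tested.

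Of 30 interferon-stimulated genes, 0 were called by edgeR or by DESeq2's Wald test on 4 groups, and 1 had an unadjusted p below 0.05. The median was -0.18, with -0.77 in DKO replicate 2 and 0.07 and 0.09 in replicates 1 and 3. Of 15 STAT and SOCS genes, *Cish*, which STAT5 induces, was the only one called and was downregulated, from 22.4, 24.4 and 27.4 CPM in WT to 13.5, 11.8 and 15.6 CPM in DKO (log2 fold change -0.86 ± 0.20 SE, adjusted p = 0.0361), and it was not called without DKO replicate 2 (adjusted p = 0.106). Of 12 MHC class II presentation genes, *H2-DMa*, which loads peptides, was downregulated (62.6, 64.1 and 64.1 CPM in WT, 45.8, 25.5 and 36.5 CPM in DKO, log2 fold change -0.83 ± 0.19 SE, adjusted p = 0.032) and 0 were upregulated. *H2-DMa* was not called without DKO replicate 3 (adjusted p = 0.0606). Of 11 genes of DNA methylation and demethylation, edgeR called 0, with 1 at an unadjusted p below 0.05, and DESeq2's Wald test on 4 groups 0. Without DKO replicate 2, *Uhrf1*, which guides maintenance methylation, was called up (adjusted p = 0.0175).

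Outside the lists, the genes that rose most were at most 3.31 CPM in every WT library. Taking called genes whose DKO mean reached 10 CPM and whose groups did not overlap, the 10 that rose most were *P3h2*, *Ntng1*, *Meis2*, *Pcsk1*, *Sntg2*, *Flrt2*, *Scg2*, *Cd109*, *Shtn1* and *Ica1l*. *Pcsk1*, a proprotein convertase known from endocrine cells that cleaves prohormones (chr13:75227274-75269946), was at 2.64, 3.31 and 2.79 CPM in the WT libraries and 38.7, 1627 and 71.6 CPM in DKO (log2 fold change 7.62 ± 1.46 SE, adjusted p = 0.0153), and without DKO replicate 2 its log2 fold change was 4.23 (adjusted p = 0.00474). *Scg2*, a secretogranin of secretory granules (chr1:79431244-79436665), was at 0.426, 0.338 and 0.0997 CPM in the WT libraries and 7.45, 13.4 and 55.5 CPM in DKO (log2 fold change 6.36 ± 0.85 SE, adjusted p = 0.00387), with replicate 3 the highest and a log2 fold change of 5.08 without it. *Shtn1*, a cytoskeletal gene of growing axons (chr19:59047848-59150559, annotated there as 4930506M07Rik), was at 1.53, 1.28 and 0.898 CPM in the WT libraries and 18.8, 114 and 119.6 CPM in DKO (log2 fold change 6.06 ± 0.63 SE, adjusted p = 0.00134) and was called in 12 of 13 alternative fits. In each of the 3, even DKO replicate 1 was at least 10 times the highest WT library.

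*P3h2*, a prolyl 3-hydroxylase of collagens (chr16:25959374-26105870), had 0 reads in the 3 WT libraries, and in DKO it was at 2.31, 27 and 7.51 CPM. Taking 3 counts in each WT library as the floor, it was at least 41.0-fold higher, and at least 16.4-fold without DKO replicate 2. *Sntg2* had 2 reads in the WT libraries together and 423 in DKO, a ratio of 210.3 with a 95% counting interval of 57.9 to 1742, and *Meis2*, a homeobox factor, had 3 and 795 reads, a ratio of 263 (89.8 to 1280.4). These intervals cover counting error and not the spread between libraries. *Meis2* was at 1.51, 51.4 and 4.15 CPM in DKO, and its log2 fold change went from 7.71 to 4.97 without DKO replicate 2, while *Sntg2* was at 2.13, 13.7 and 18 CPM. *Flrt2*, an adhesion protein of axon guidance, was at 1.45, 1.62 and 1.3 CPM in the WT libraries and 10.2, 371 and 19.1 CPM in DKO, with replicate 2 far above the other DKO libraries, and its log2 fold change went from 6.50 to 3.32 without that library. *Ica1l* likewise went from 6.03 to 3.77. *Cd109*, a GPI-anchored inhibitor of TGF-β signaling, was at 0.596, 0.743 and 0.199 CPM in the WT libraries and 6.65, 69.3 and 59.1 CPM in DKO (log2 fold change 6.35 ± 1.02 SE, adjusted p = 0.00794).

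The genes that fell most were low in each DKO library. *Igsf23*, an immunoglobulin superfamily gene (chr7:20522654-20536092), was at 49.2, 50.7 and 59.4 CPM in the WT libraries and 15.6, 12.1 and 10.7 CPM in DKO (log2 fold change -2.05 ± 0.24 SE, adjusted p = 0.00253), with the 3 DKO libraries alike, and it was called in all 13 alternative fits, the 6-library edgeR fit among them. *Cd8b1*, the CD8 beta chain (chr6:71272830-71287471), was at 22.9, 21.2 and 22.4 CPM in the WT libraries and 9.4, 5.0 and 9.63 CPM in DKO (log2 fold change -1.48 ± 0.22 SE, adjusted p = 0.0049), with all 3 DKO libraries below WT. It was called in 12 of 13, and *Cd8a* was at or near the counting floor in all 6 libraries. *Il9r*, the IL-9 receptor, was at 8.85, 11.5 and 11.1 CPM in the WT libraries and 4.79, 1.97 and 2.56 CPM in DKO (log2 fold change -1.76 ± 0.32 SE, adjusted p = 0.0122). *Adh1*, an alcohol and retinol dehydrogenase, was at 25.5, 21 and 20.8 CPM in the WT libraries and 13.2, 3.17 and 8.57 CPM in DKO (log2 fold change -1.44 ± 0.35 SE, adjusted p = 0.0387), and was not called without DKO replicate 3 (adjusted p = 0.0739). *Rell1*, *Apol9b*, *Wfikkn2*, *Gabrr2* and *Rasgrf2* fell with log2 fold changes between -1.89 and -1.29 (*Wfikkn2* was not called without DKO replicate 1 or 3, adjusted p = 0.0511 and 0.108), and *Ccr9*, given above, completed the 10.

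**Figure D4:**
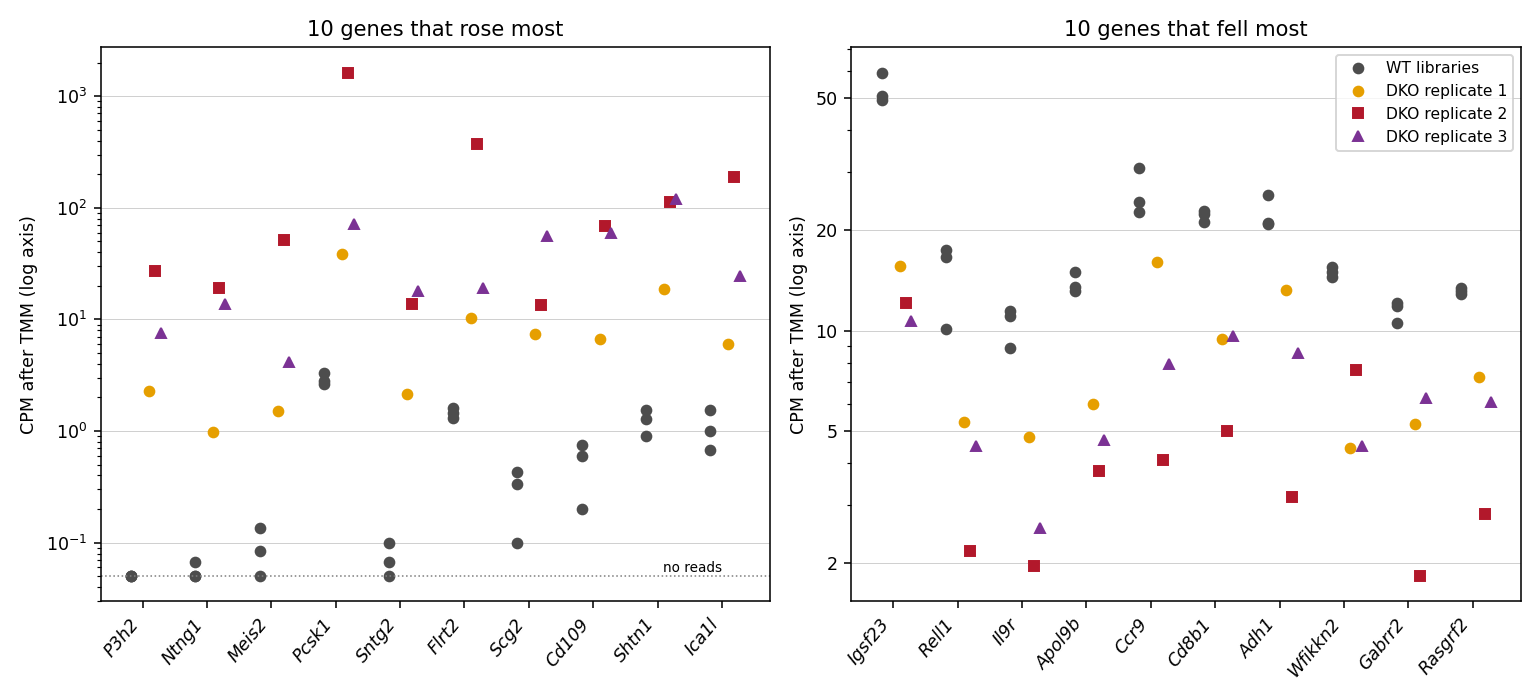
CPM after TMM normalization (y axes, log scale) in the 3 WT and 3 DKO CD4+Foxp3- libraries of the 10 genes that rose most (left) and the 10 that fell most (right), 1 symbol per library, with libraries without reads drawn on the dotted line. *Pcsk1* goes from at most 3.31 CPM in WT to 38.7, 1627 and 71.6 CPM in DKO, and *Igsf23* from 49.2 to 59.4 CPM in WT to 10.7 to 15.6 CPM in DKO.

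In CD4+Foxp3- cells of spleen and pLNs, 2 WT and 2 DKO libraries were tested separately and 134 of 16357 genes (0.819%) were called. Values of a selection of the genes named above follow, not of all of them. *Pcsk1* was at 4.03 and 2.57 CPM in spleen WT and 233 and 181 CPM in DKO (log2 fold change 5.97, adjusted p = 2.87e-05), and *Scg2* at 0.38 and 0.804 CPM and 72.3 and 9.85 CPM (adjusted p = 0.0112). *Cd38* was at 29.6 and 17.8 CPM in spleen WT and 82.5 and 46.5 CPM in DKO (adjusted p = 0.0423) and *Pmaip1* at 5.54 and 4.98 CPM and 31.6 and 10.6 CPM (adjusted p = 0.043). Each of these 4 passed the test in both tissues, as did *Flrt2*, *Ica1l*, *Meis2* and *Cd109* (adjusted p = 0.0106, 0.0106, 0.0302 and 0.0446 in spleen and pLNs). Other genes called in mLNs had an effect of the opposite sign in spleen and pLNs and did not pass the test there. They included *Itga4*, *Cish* and *Apol9b*, with log2 fold changes of -0.07, 0.09 and 0.30 (adjusted p = 0.961, 0.977 and 0.761). *Icos*, *Lag3* and *Mki67* did not pass it in spleen and pLNs, where DKO replicate 1 was higher than replicate 2. *Icos* was at 212 and 188 CPM in spleen WT and 1236 and 262 CPM in DKO (adjusted p = 0.0948), *Lag3* at 124 and 111 CPM and 896 and 149 CPM (adjusted p = 0.0957), and *Mki67* at 2.05 and 2.33 CPM and 7.22 and 2.96 CPM (adjusted p = 0.502). The tissues were not tested against each other.

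The DKO effect was compared with that in mLN Treg cells, the cells in which the deletion was targeted, by a test of the difference between the effects (the interaction), which called 47 of 16784 genes (0.28%), 27 with a higher and 20 with a lower effect in CD4+Foxp3- cells, and 1827 at an unadjusted p below 0.05. The count was 462 without DKO CD4+Foxp3- replicate 2, 234 without replicate 1, and 17 to 19 without a WT replicate. With the replicate number within a genotype as a block, which no source ties to a mouse, the test called 118 genes (0.703%), 81 higher and 37 lower in CD4+Foxp3- cells, with 41 shared in gene and direction with the 47. *Nrp1*, a coreceptor reported as a marker of thymic Treg cells, moved in opposite directions in the cells of mLNs. In CD4+Foxp3- cells it was at 23.9, 26.3 and 23.4 CPM in the WT libraries and 32.6, 66.6 and 39.9 CPM in DKO (log2 fold change 0.92 ± 0.20 SE, adjusted p = 0.0234), and in Treg cells it fell from a mean of 332 to 104 CPM (log2 fold change -1.68 ± 0.19 SE, adjusted p = 0.000166), with an interaction of 2.60 (adjusted p = 0.00588). *Itgb1*, the β1 integrin chain, also had effects of opposite sign, 0.48 ± 0.10 in CD4+Foxp3- and -0.39 ± 0.10 in Treg cells (interaction adjusted p = 0.0187).

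In Treg cells, 2001 of 16784 genes (11.9%) were called, 8.50% up and 3.43% down. Of the 12 MHC class II genes, 6 rose and 2 fell in Treg cells. *H2-Aa* was at 10.1, 4.46 and 6.18 CPM in the WT libraries and 6.83, 8.58 and 8.04 CPM in DKO CD4+Foxp3- cells (adjusted p = 0.824) and went from a mean of 1.13 to 21.3 CPM in Treg cells (interaction -4.04, adjusted p = 0.00735). *H2-Eb1* showed the same difference (interaction -3.50, adjusted p = 0.00735). Marker genes of other cell types were called in the Treg libraries too. Of 14 B cell, 18 myeloid and 6 plasma cell genes, 4, 5 and 2 were upregulated and 2, 1 and 0 downregulated (medians 2.70, 1.10 and 3.56). The part of such cells in the class II values of Treg cells was not tested. *H2-Aa* and *H2-Eb1* were both called up in CD4+Foxp3- cells of spleen and pLNs. *H2-Aa* was at 15.3 and 13.1 CPM in the WT libraries of these tissues, against 33.1 and 40.3 CPM in DKO (log2 fold change 1.37, adjusted p = 0.0166). *H2-Eb1* was at 8.43 and 7.32 CPM, against 21 and 28.7 CPM in DKO (log2 fold change 1.66, adjusted p = 0.0173). Of the 36 replication genes, 3 had a called interaction, and 4 with the replicate number within a genotype as a block. *E2f1*, which switches them on, was at 5.62, 5.33 and 5.79 CPM in the WT libraries and 5.59, 5.28 and 5.39 CPM in DKO CD4+Foxp3- cells and rose from a mean of 5.93 to 15.8 CPM in Treg cells (interaction -1.45, adjusted p = 0.00812), and the helicase genes *Mcm3* and *Mcm5* had lower effects in CD4+Foxp3- than in Treg cells (interaction -0.72 and -0.89, adjusted p = 0.0151 and 0.0448). In the other direction, *Thy1*, a surface protein of T cells, was at 1087, 1061 and 1091 CPM in the WT libraries and 1084, 825 and 767 CPM in DKO CD4+Foxp3- cells and fell from a mean of 771 to 336 CPM in Treg cells (interaction 0.92, adjusted p = 0.0307). *Hopx*, *Itga6*, *Socs2*, *Epas1* and *Il1rl1* (the IL-33 receptor) fell in Treg cells by 1.63 to 3.80 on the log2 scale and were not called in CD4+Foxp3- cells. With that block, the interactions of *Mcm5* and *Socs2* no longer passed the test (adjusted p = 0.0601 and 0.0518), while 22 further listed or named genes did, 16 with a higher and 6 with a lower effect in CD4+Foxp3- cells. Among them were *Il2ra* and *Cish* with interactions of 1.40 and 1.05 (adjusted p = 0.00302 and 0.0311), and *H2-Ab1* and *Crtam* with -4.15 and -3.80 (adjusted p = 0.00298 and 0.00375). Over the mitosis list, 36 of 36 genes were upregulated in DKO Treg cells and 14 in the CD4+Foxp3- population, with medians of 1.49 and 0.82, and 0 of the 36 had a called interaction.

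**Figure D5:**
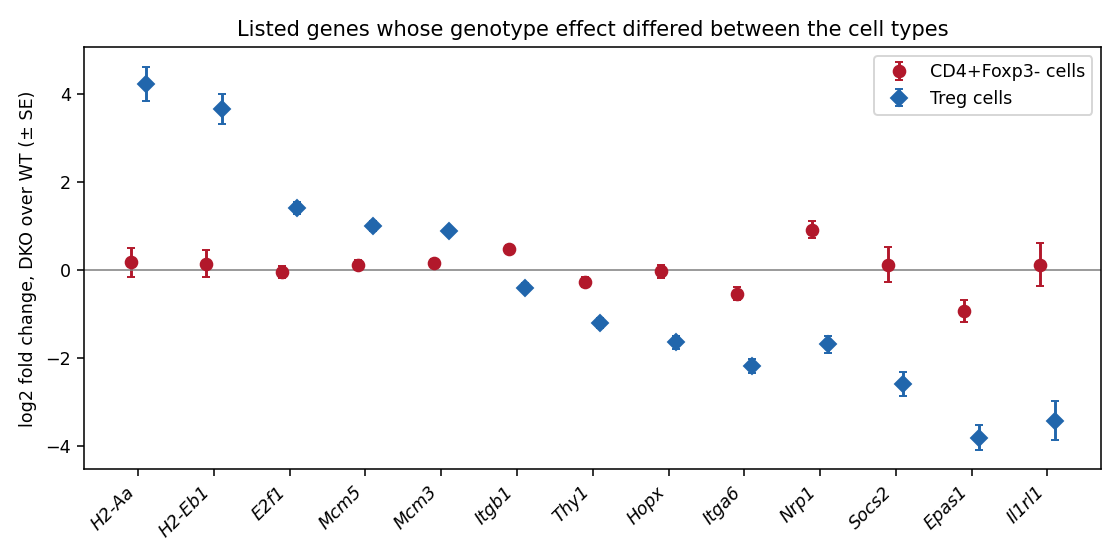
Log2 fold change of DKO over WT with its standard error (y axis) in mLN CD4+Foxp3- cells and in mLN Treg cells for the 13 listed genes with a called interaction, n = 3 libraries per group. *H2-Aa* is near 0.18 in CD4+Foxp3- cells and at 4.23 in Treg cells, and *Nrp1* has effects of opposite sign.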

How the data were processed

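RNA was taken from cells sorted from mLNs, with 3 libraries in each group, prepared by the authors with a strand-specific mRNA kit. Per the labels and the study's methods, TopHat2 2.1.1 aligned the reads to mm9 with no more than 1 hit each, and featureCounts of Subread 1.4.3-p1 counted them by strand over RefSeq gene models. The deposited counts are whole reads per gene symbol without normalization. The deposited TPM values, whose calculation is not given in the sources used here, served only as an alternative scale for levels. No source states whether same-numbered libraries come from 1 mouse, so p-values measure the spread between these libraries.

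Counts of the 16784 genes with at least 1 read were normalized by TMM and tested with edgeR 4.0.16 (quasi-likelihood test, R 4.3.3) on all 12 mLN libraries and 4 groups, without a replicate block. Standard errors are the absolute log2 fold change divided by the square root of the F statistic. The scripts were tested on simulated data. CPM are counts scaled to library size after TMM, and floors cover counting error only. Spleen and pLN counts were fitted separately, also on 4 groups.

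Gene lists were written from general knowledge, and the comparison, lists and tests were chosen with earlier results of these data known. The genes named by rule are the first 2 of each list, up to 4 called genes of each list with the largest change at 10 CPM or more (1 CPM for cytokines), the 10 that rose and the 10 that fell most at 10 CPM or more without overlap, and *Tet2*, *Tet3* and *Foxp3*. Other list members and *Plxdc2* were named after their values were seen. Of the 543 list entries, 22 genes were not analysed here, and the values of a few others are not reported here. Alternatives were DESeq2's size factors, DESeq2 1.42.0 Wald tests on 4 or 2 groups, edgeR on 2 groups, filterByExpr, a replicate block, no fold minimum, a robust prior, TPM, and leaving out each CD4+Foxp3- library. Deviations of same-numbered WT and DKO libraries correlated with r of 0.114, 0.110 and 0.0197, so the numbers were not taken to pair them. Those of same-numbered CD4+Foxp3- and Treg libraries of 1 genotype correlated with r of 0.110 to 0.390, though DKO CD4+Foxp3- replicate 1 had r of 0.160 with a Treg library of another number. The interaction was therefore also fitted with the replicate number within a genotype as a block. Gene positions come from GENCODE M1 on NCBIM37, an annotation other than the one counted on. Every one of the table's columns had a sample (0 without). Spleen TPM were not used.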

Additional observations from a re-analysis of the deposited data

Results flagged for a closer look

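Among the named and listed genes, 13 had a DKO effect that differed between CD4+Foxp3- and Treg cells of mLNs by the test of the interaction (edgeR, adjusted p of at most 0.05). Given as the log2 effect in CD4+Foxp3- cells minus that in Treg cells, the differences were -4.04 for *H2-Aa*, -3.50 for *H2-Eb1*, -1.45 for *E2f1*, -0.89 for *Mcm5* and -0.72 for *Mcm3*, whose effects were higher in Treg cells. They were 0.88 for *Itgb1*, 0.92 for *Thy1*, 1.61 for *Hopx*, 1.65 for *Itga6*, 2.60 for *Nrp1*, 2.71 for *Socs2*, 2.87 for *Epas1* and 3.54 for *Il1rl1*, whose effects were lower in Treg cells. With the replicate number within a genotype as a block, the calls of *Mcm5* and *Socs2* were lost and 33 of the named and listed genes were called. Single genes were not tested for outlying libraries in these groups of 3.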

How the results depend on the processing

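The direction of the 61 called named genes held in all 13 alternatives, which reuse the libraries that selected them. The count of calls moved with the test, the fold minimum, the estimate of the spread and the libraries used, and their parts were not separated. Beside the 575 calls (524 up, 51 down), DESeq2's Wald test on 4 groups made 924 (835 up, 89 down), edgeR's robust prior 323 (289 up, 34 down) and edgeR on 2 groups 2 (1 up, 1 down). Without a fold minimum 643 were called, 91 of them down. Leaving out 1 library gave 57 to 1453 calls (53 to 1201 up, 4 to 252 down). DESeq2's size factors in edgeR, DESeq2 on 2 groups and filterByExpr gave 585, 539 and 525. The replicate block, whose numbers share no more than a number across genotypes, gave 563 calls, 496 of them shared. The interaction called 47 genes, 402 with DESeq2's Wald test and 17 to 462 without 1 library. With the number within a genotype as replicate block, chosen after seeing the data, it called 118. TPM moved the DKO over WT ratio of 4 named genes by more than the spread. Of 35 uncalled named genes, 12 changed sign in some fit. Under the replicate block *Ciita* went to -0.014 and *Isg15* to -0.021. Over the fits without 1 library, log2 fold changes ran from -0.12 to 0.053 for *Bcl2*, -0.23 to 0.16 for *Ciita*, -1.01 to 0.50 for *Foxp3*, -0.17 to 0.23 for *Gata3*, -0.064 to 0.57 for *H2-Aa*, -0.41 to 0.59 for *Il4*, -0.25 to 0.27 for *Isg15*, -0.078 to 0.19 for *Itgb7*, -0.044 to 0.024 for *Pcna*, -0.44 to 0.23 for *Prdm1*, -0.35 to 0.24 for *Tbx21* and -0.40 to 0.065 for *Tet3*.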
